A study of Mus musculus with 2 samples.

Results

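The genes described here are 10 members of the VEGF and angiopoietin axis, the pair of ligand and receptor systems through which blood and lymphatic vessels are built. They were chosen by name from 43346 mouse gene identifiers, with earlier results of these data known and by a rule that uses no measured value: the ligands Vegfa, Vegfb and Vegfc, the receptor tyrosine kinases Kdr, Flt1 and Flt4, the coreceptors Nrp1 and Nrp2, and the receptor Tek with its ligand Angpt1. All 10 were found in the deposited gene tables. Total RNA from livers of B6NCrl mouse embryos at embryonic day 12.5 was measured in 2 libraries, which form 1 group with no treatment, mutation or second stage. Replicate 1 came from a pool of 120 healthy embryos and replicate 2 from a pool of 88, both sexes mixed in each, and each library was started from 10 ng of RNA. Both pools carry the same donor label, and p-values were not computed: the design sets no condition against another, and the spread between the libraries may be partly technical.

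VEGF ligands are secreted dimers that bind receptor tyrosine kinases on endothelial cells. Kdr (VEGFR2) carries most of the growth and migration signal of VEGFA, Flt1 (VEGFR1) binds VEGFA and VEGFB tightly and signals weakly, and Flt4 (VEGFR3) is the receptor of VEGFC and is known for lymphatic growth. Angiopoietin 1 activates Tek (TIE2) and steadies vessels. In the fetal liver, sinusoidal vessels run among hepatoblasts and developing blood cells, and the RNA of all these cells was sequenced together. In such bulk tissue, fewer cells of a type and less RNA per cell cannot be told apart.

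Several of these genes make proteins of different behaviour from alternative exons, and the sequences at which their transcripts part are shown first, because the isoform values below turn on them. They were read from the GENCODE M21 transcripts on mm10, 5′ to 3′ on the strand of the gene. Vegfa lies on the minus strand of chromosome 17 (46016993 to 46032369, mm10). The amount of exon 6 and exon 7 that follows exon 5 sets how firmly the protein is held by heparan sulfate in the matrix: VEGF120 has neither exon and diffuses freely, VEGF164 has exon 7, and VEGF188 has both. In the first 3 lines the lower-case bases end exon 5 and the capitals are the first bases of the next exon. In the lines after them the capitals are the whole of exon 6 (72 bases, chr17:46022277-46022348) and of exon 7 (132 bases, chr17:46020991-46021122).
VEGF120 type: aacaaagccagaaaaATGTGACAAGCCAAG
VEGF164 type: aacaaagccagaaaaTCACTGTGAGCCTTG
VEGF188 type: aacaaagccagaaaaAAAATCAGTTCGAGG
Vegfa exon 6: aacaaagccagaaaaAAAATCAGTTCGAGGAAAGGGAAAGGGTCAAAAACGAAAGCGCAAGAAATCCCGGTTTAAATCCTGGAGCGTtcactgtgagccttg
Vegfa exon 7: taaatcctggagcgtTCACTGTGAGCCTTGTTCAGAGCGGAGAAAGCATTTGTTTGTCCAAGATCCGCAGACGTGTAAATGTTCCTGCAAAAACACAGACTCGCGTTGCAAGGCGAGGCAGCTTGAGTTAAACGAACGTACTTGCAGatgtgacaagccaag

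Vegfb lies on the minus strand of chromosome 19 (6982473 to 6987651). Its long form, Vegfb-201 (207 residues), holds a coding stretch of 101 bases (chr19:6985496-6985596) that the short form, Vegfb-202 (188 residues), splices out. The stretch shifts the reading frame, so the forms end in different residues: the short one is known to bind heparan sulfate and the long one to be freely secreted. The first line has the stretch in capitals between the exon before it and the bases that both forms keep, and the second line has in capitals the first bases after the junction of the short form.
Vegfb-201 segment: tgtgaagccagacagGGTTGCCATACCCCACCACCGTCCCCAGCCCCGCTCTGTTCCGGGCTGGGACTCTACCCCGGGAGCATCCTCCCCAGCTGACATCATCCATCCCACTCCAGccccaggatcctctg
Vegfb-202: tgtgaagccagacagCCCCAGGATCCTCTG

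Flt1 lies on the minus strand of chromosome 5 (147561604 to 147726011). The full-length receptor has 30 exons and 1333 residues. The soluble form has 13 exons and 688 residues: it reads on from an exon of the full-length form into the intron, meets a TAA stop codon after 92 bases of its own coding sequence, and so lacks the membrane and kinase parts. Soluble FLT1 is secreted and is known as a trap for VEGFA. The capitals are the read-through to and with the stop codon in the soluble form (chr5:147639130-147639239 with the lower-case bases), and the first bases of the next exon in the full-length form.
Flt1 soluble form: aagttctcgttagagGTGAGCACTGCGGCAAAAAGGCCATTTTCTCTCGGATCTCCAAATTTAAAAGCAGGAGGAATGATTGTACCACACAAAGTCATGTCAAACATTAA
Flt1 full-length form: aagttctcgttagagATTCGGAAGCGCCAC

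Nrp2 lies on the plus strand of chromosome 1 (62703285 to 62818695), and its a and b forms differ in the last coding exon, which encodes the membrane and cytoplasmic end of the coreceptor. A junction of each is shown with the last coding exon in capitals. The line before them has in capitals a stretch of 15 bases that precedes this exon in some forms (exon at chr1:62786281-62786316). Forms with these bases are called long here and forms without them short. The longest a forms have a further exon of 51 bases, which is not shown.
Nrp2 long a form, exon: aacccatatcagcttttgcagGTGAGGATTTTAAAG
Nrp2 short a form: tatcagcttttgcagATGAATATGAAGGAG
Nrp2 short b form: tatcagcttttgcagGGGGCACCCTCCCGC

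The libraries held 37562365 expected counts in replicate 1 and 34729954 in replicate 2, of which the 10 members took 0.0291% and 0.0288%. Levels are given as TPM, a length-scaled abundance in which genes can be set side by side, and 12841 mouse genes reached 1 TPM in both libraries with a median of 12.7 TPM. Liver and blood-forming markers were present: Afp, the fetal serum protein of hepatoblasts, had 5312 TPM in replicate 1 and 5136 in replicate 2, and all 10 markers were detected in each of the hepatoblast, erythroid and megakaryocyte lists. All 12 pan-endothelial markers were detected, with Egfl7 (105 and 92.0 TPM) and Eng (30.8 and 28.1 TPM) the highest and Erg (1.21 and 2.25 TPM) the lowest, and none was at 0. Their summed level was 207 TPM in replicate 1 and 194 in replicate 2, but 5 of the 12 were higher in replicate 1, and Egfl7 had the largest gap in TPM. Of 5 heart markers 4 were detected: Myl7, an atrial myosin light chain, had 19.5 and 18.9 TPM, above 9 of the 10 members, and Myh6 was lowest at 0.31 and 0.37 TPM. The part of heart tissue in the members' levels was not tested.

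All 10 members were detected at 1 TPM or more in both libraries, and their median of 6.15 TPM lay under that of all detected genes. Vegfb was the highest member at 20.2 ± 0.0 TPM (SD, n = 2, as are all SDs here). It was followed by Nrp1 (18.2 ± 0.311), Kdr (15.3 ± 1.2), Tek (7.04 ± 0.141), Flt1 (6.66 ± 0.247), Vegfc (5.64 ± 0.141), Flt4 (4.12 ± 0.0778), Angpt1 (3.70 ± 0.0354), Vegfa (2.44 ± 0.12) and Nrp2 (1.96 ± 0.276 TPM). Vegfb stood above 60.9% of the detected genes, Kdr above 54.3%, Vegfa above 13.7% and Nrp2 above 9.53%. The ranges of the libraries did not overlap in any of the 9 pairs of neighbours in this order. The authors' own bounds of TPM, whose level is not stated, overlapped in both libraries for 4 of these pairs: Tek and Flt1, Flt1 and Vegfc, Flt4 and Angpt1, and Angpt1 and Vegfa. They overlapped for Vegfb and Nrp1 in replicate 2 alone, and for Vegfa and Nrp2 in replicate 1 alone.

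**Figure D1:**
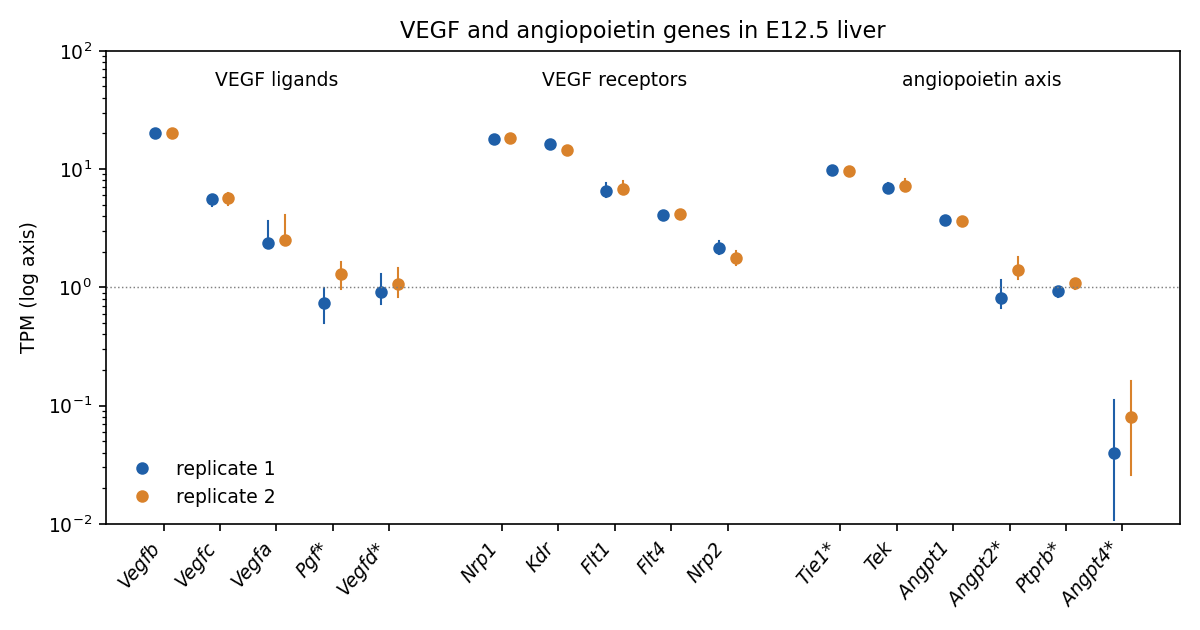
TPM (log axis) of each gene of the VEGF ligand, receptor and angiopoietin lists in replicate 1 (blue) and replicate 2 (orange); thin lines are the bounds the authors deposited, an asterisk marks genes that are not among the 10 members, and the dotted line is 1 TPM. Vegfb, Nrp1 and Kdr sit highest, and Pgf, Angpt2 and Angpt4 lie lower and farther apart between the libraries.

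Among the ligands, Vegfb was by far the most abundant. Vegfb, whose product binds Flt1 and Nrp1 but not Kdr, had 20.21 TPM in both replicates, from 695 expected counts in replicate 1 and 639 in replicate 2. Vegfc, the main ligand of Flt4, had 5.54 TPM in replicate 1 (311 counts) and 5.74 TPM in replicate 2 (298 counts). Vegfa, the principal vessel growth factor and ligand of Kdr and Flt1, had only 2.35 TPM in replicate 1 (162 counts) and 2.52 TPM in replicate 2 (186 counts). Vegfb thus exceeded Vegfa 8.60-fold in replicate 1 and 8.02-fold in replicate 2, and Vegfc exceeded it 2.36-fold and 2.28-fold. Both orders held in each library. By posterior mean TPM, Vegfa was higher (2.88 in replicate 1 and 3.29 in replicate 2). Vegfb (19.98 and 19.97) and Vegfc (5.46 and 5.65) were slightly lower, so these folds were smaller by that measure.

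The other ligands of the family lay near the level of 1 TPM used here for detection. Vegfd, which also binds Flt4, had 0.91 TPM in replicate 1 and 1.07 in replicate 2 (56 and 58 counts). Pgf, the placental growth factor and a ligand of Flt1, had 0.73 and 1.30 TPM (34 and 56 counts). Of the summed TPM of the 5 VEGF ligands, which was 29.7 in replicate 1 and 30.8 in replicate 2, Vegfb held 68.0% and 65.5%, Vegfc 18.6% in both, and Vegfa 7.90% and 8.17%. These are shares of transcripts and not of protein.

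Among the receptor kinases Kdr led. It had 16.1 TPM in replicate 1 (2951 counts) and 14.4 TPM in replicate 2 (2438 counts), and Flt1 had 6.48 TPM (931 counts) and 6.83 TPM (950 counts). Flt4 had 4.06 TPM in replicate 1 (782 counts) and 4.17 TPM in replicate 2 (738 counts). The order Kdr, Flt1, Flt4 was the same in both libraries. Kdr held 60.5% of the summed TPM of the 3 kinases in replicate 1 and 56.8% in replicate 2, Flt1 held 24.3% and 26.9%, and Flt4 held 15.2% and 16.4%. Set against Cdh5, the endothelial cadherin (7.94 and 8.22 TPM), Kdr stood at 2.03 and 1.76 times its level, Flt1 at 0.816 and 0.831 times, and Flt4 at 0.511 and 0.507 times. Kdr and Flt4 each came almost wholly from 1 full-length transcript, which held 99.4% and 98.8% of Kdr and 98.5% and 97.1% of Flt4.

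The coreceptors differed widely from each other. Nrp1, which binds VEGF164 and class 3 semaphorins, had 18.0 TPM in replicate 1 (3284 counts) and 18.4 TPM in replicate 2 (3114 counts). Nrp2, which binds VEGFC and semaphorin 3F among others, had 2.15 TPM in replicate 1 (351 counts) and 1.76 TPM in replicate 2 (294 counts). Nrp1 therefore exceeded Nrp2 8.35-fold in replicate 1 and 10.4-fold in replicate 2, and it stood at 2.26 and 2.24 times the level of Cdh5.

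In the angiopoietin axis the receptors exceeded the ligands. Tek had 6.94 TPM in replicate 1 (974 counts) and 7.14 TPM in replicate 2 (892 counts), and Tie1, the related receptor that pairs with Tek, had 9.84 TPM (1222 counts) and 9.57 TPM (1090 counts). Angpt1, the activating ligand, had 3.72 TPM in replicate 1 (487 counts) and 3.67 TPM in replicate 2 (444 counts), so that Tek exceeded it 1.87-fold and 1.95-fold. Angpt2, a context-dependent antagonist, had 0.81 TPM in replicate 1 (88 counts) and 1.41 TPM in replicate 2 (134 counts). Angpt1 exceeded Angpt2 in both libraries, 4.59-fold in replicate 1 and 2.60-fold in replicate 2. Ptprb, the phosphatase that restrains Tek, had 0.93 and 1.09 TPM, and Angpt4, another ligand of Tek, had 0.04 and 0.08 TPM from 3 and 5 counts.

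No member was called between the pools, and 10 genes are too few to set this apart from the share of all genes. Called here means a TPM, after 0.1 was added, at least 25% higher in one library than in the other, for genes averaging 50 or more expected counts. All 10 members passed the count minimum and 0 were past this margin, against 8.68% of the 13017 mouse genes tested (1130 genes). By direction, 0 members were higher in replicate 1, against 3.76% of genes, and 0 were lower, against 4.92%. Of the angiopoietin list, 1 of the 5 genes tested was past the margin: Angpt2, which was lower in replicate 1. Centred on the spike-ins, which shifted all genes, Nrp2 alone passed the margin, against 11.3% of genes. Without that centring, the share of 8.68% depended on depth. It was 21.9% among genes of 50 to under 500 mean counts, where Vegfa, Vegfc, Nrp2, Angpt1 and also Angpt2 lie. Among those of 500 or more it was 1.31%. On the log2 scale with the added 0.1 TPM the members ran from -0.10 (Vegfa) to 0.27 (Nrp2), with a median of -0.04, and the median of all tested genes was 0.01.

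By TPM, Nrp2 and Kdr were the 2 members whose exact counting interval of the ratio left out 1, which 30.9% of the tested genes also did; the interval covers counting error only. By shares of all counts, the intervals of Kdr, Flt1 and Vegfa left out 1 and that of Nrp2 did not. The share of all genes on that scale was not computed, so these members are not set apart from it. The TPM ratio of Nrp2, replicate 1 over replicate 2, was 1.22 (95% Clopper-Pearson interval 1.04 to 1.43). Its ratio of shares of all counts was 1.10 (0.943 to 1.29). The 2 scales part because the effective length differed, 5176 bases in replicate 1 and 5722 in replicate 2. That length follows the estimated mix of Nrp2 isoforms, which was not resolved. The TPM ratio of Kdr was 1.12 (1.06 to 1.18) and its ratio of count shares was also 1.12. Vegfa was farther from 1 by counts than by TPM: its TPM ratio was 0.933 (0.751 to 1.16), and its ratio of count shares was 0.805 (0.648 to 0.9995), with an effective length of 2191 bases in replicate 1 and 2532 in replicate 2. The ratio of count shares of Flt1 was 0.906 (0.827 to 0.993). Beside these ratios, 6780 of the 13017 tested genes were higher in replicate 1. All 10 megakaryocyte markers were higher in replicate 1, with a summed 1073 TPM there and 947 TPM in replicate 2. Of 12 pan-endothelial markers 5 were higher in replicate 1 (summed 207 and 194 TPM). Of 10 sinusoidal markers 6 were higher in replicate 1 (summed 150 and 145 TPM), and of 8 pericyte and smooth muscle markers 1 was (summed 46.1 and 54.5 TPM). Also higher there were 7 of 10 hepatoblast, 3 of 10 erythroid, 6 of 11 stellate and mesenchymal and 5 of 9 macrophage markers. The part of these cells in the ratios of Kdr and Nrp2 was not tested. The remaining 7 members had TPM ratios of 0.949 (Flt1) to 1.01 (Angpt1).

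**Figure D2:**
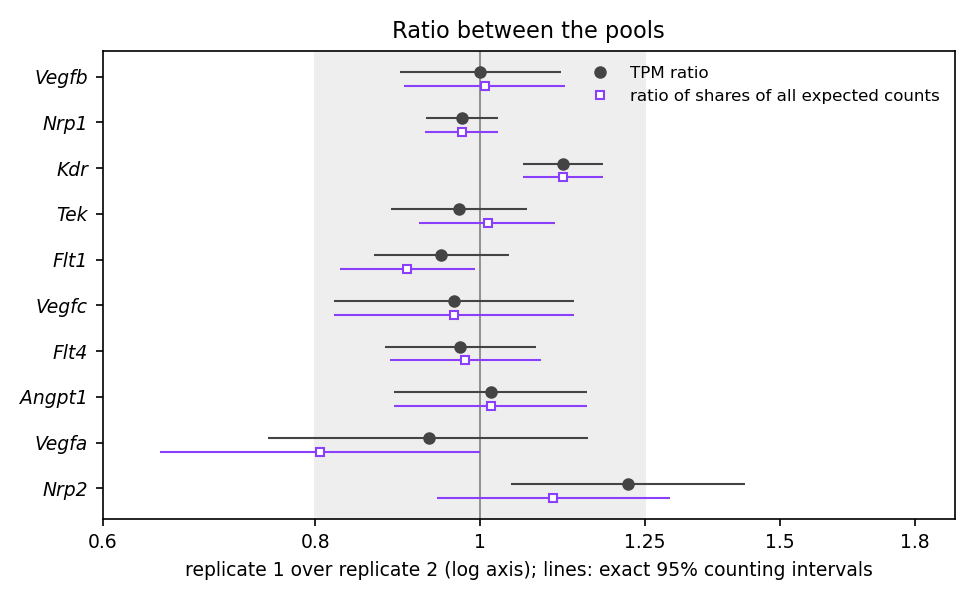
Replicate 1 over replicate 2 (log axis) for each member, as the ratio of TPM (filled circles) and as the ratio of shares of all expected counts (open squares), with exact 95% counting intervals; the grey band spans the 25% margin in either direction. All 10 TPM ratios lie in the band, and the 2 scales part most for Vegfa and Nrp2.

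The VEGF120 type held the largest share of Vegfa by deposited TPM, though the authors' bounds of its transcripts overlapped those of the VEGF164 type in both libraries. By posterior mean TPM it held 35.6% in replicate 1 and 29.6% in replicate 2, where retained-intron models held 32.6%, so its lead was not resolved. The share of a gene is the percent of its transcript TPM, recomputed from the deposited transcript values. Transcripts with the VEGF120 junction shown above held 41.7% of Vegfa in replicate 1 and 43.2% in replicate 2 (0.98 and 1.09 TPM). The VEGF164 type, carried by Vegfa-202, held 19.1% in replicate 1 and 29.0% in replicate 2 (0.45 and 0.73 TPM). The VEGF188 type held 17.0% in replicate 1, all in Vegfa-207 at 0.40 TPM, and was listed at 0 in replicate 2. Models with a retained intron held the other 22.1% in replicate 1 and 27.8% in replicate 2, but only 5.17% and 6.97% of the expected counts, because they are short.

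The split of Vegfa among single transcripts was loose at this depth. Within the VEGF120 type, replicate 1 had 0.98 TPM in Vegfa-201 and 0 in Vegfa-211, and replicate 2 had 0.04 TPM in Vegfa-201 and 1.05 TPM in Vegfa-211. These models share the exon 5 to exon 8 junction and differ at their ends, and the authors' bounds overlapped between the libraries for both: for Vegfa-211 they reached from near 0 to 0.759 TPM in replicate 1 and from 0.00129 to 1.28 TPM in replicate 2. The bounds of Vegfa-207 likewise ran from near 0 to 0.625 TPM in replicate 1 and to 0.505 TPM in replicate 2, so the presence of the VEGF188 type in one pool and not the other was not resolved. The deposited model of Vegfa-211 was 3324 bases long against 975 bases in the annotation used for the exons, which gives it a further limit.

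**Figure D3:**
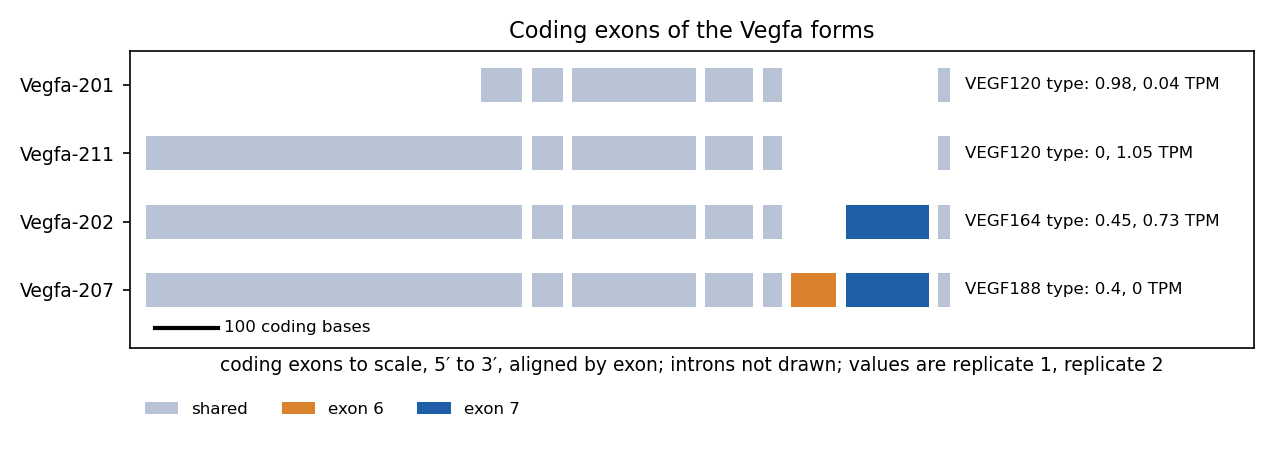
Coding exons of 4 Vegfa transcripts drawn to scale from 5′ to 3′ and aligned by exon, with exon 6 in orange and exon 7 in dark blue; the numbers at the right are TPM in replicate 1, then replicate 2. Vegfa-201 and Vegfa-211 skip both exons, and the VEGF120 level sits in Vegfa-201 in replicate 1 and mostly in Vegfa-211 in replicate 2, with sums of 0.98 and 1.09 TPM.

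Vegfb made both of its forms in near-equal amounts. The short Vegfb-202 had 11.1 TPM in replicate 1 and 10.6 in replicate 2, and the long Vegfb-201 had 8.60 and 8.83 TPM. The short form held 54.8% of the gene in replicate 1 and 52.3% in replicate 2, or 1.29 and 1.20 times the long form. The authors' bounds of the forms overlapped in both libraries, with 8.26 to 13.4 TPM for the short and 6.34 to 10.8 TPM for the long form in replicate 1, so their order was not resolved. A retained-intron model held the small rest, 2.67% and 3.96%.

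A large part of the Flt1 TPM was assigned to models other than the full-length form. The full-length form had 2.61 TPM in replicate 1 and 2.78 in replicate 2, 40.3% and 40.6% of the gene. The soluble form had 1.18 TPM in replicate 1 and 1.38 in replicate 2, 18.2% and 20.2%, so that the full-length form exceeded it 2.21-fold and 2.01-fold. The bounds of these forms did not overlap in either library: 2.30 to 2.82 TPM against 0.969 to 1.37 TPM in replicate 1, and 2.45 to 3.01 TPM against 1.14 to 1.57 TPM in replicate 2. A noncoding model shares 10 of its 12 exons with the full-length form and ends in an exon of its own of 241 bases. It had 2.30 TPM in replicate 1 and 2.68 in replicate 2. Its bounds were 1.56 to 2.99 TPM in replicate 1 and 1.89 to 3.39 TPM in replicate 2. They overlapped those of the full-length form in both libraries, so the order of the noncoding and full-length models was not resolved. Together the noncoding model and the soluble form came to 1.33 times the full-length form in replicate 1 and 1.46 times in replicate 2.

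The level of the soluble form rests on a long last exon. That exon has 4375 bases, of which 4066 lie in the intron of the full-length form, so reads from unspliced Flt1 RNA there would be counted to it; the size of that part was not tested. By expected counts the full-length form held 60.0% of Flt1 in replicate 1 and 57.9% in replicate 2, and the soluble form 24.6% and 26.1%. Against full-length Flt1 alone, the full-length Kdr-201 was 6.15-fold higher in replicate 1 and 5.14-fold higher in replicate 2.

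**Figure D4:**
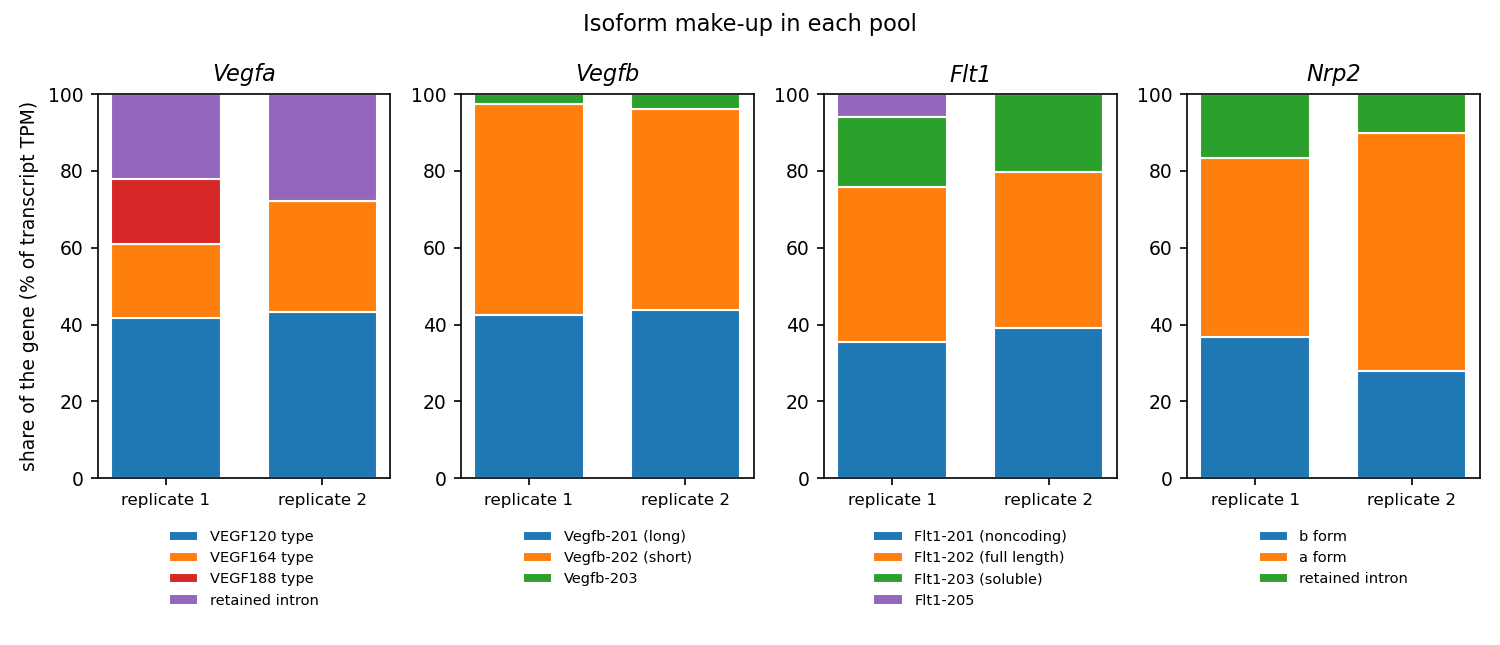
Share of each gene's transcript TPM (%) by isoform type or transcript for Vegfa, Vegfb, Flt1 and Nrp2, with replicate 1 as the left bar and replicate 2 as the right bar of each panel. The Vegfb bars are alike in both libraries, whereas a VEGF188 band is drawn in replicate 1 alone and the Nrp2 a form is larger in replicate 2.

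By deposited TPM the a forms of Nrp2 exceeded its b forms in both libraries. They held 46.5% of the gene in replicate 1 and 61.9% in replicate 2 (1.00 and 1.09 TPM). The b forms held 36.7% and 27.8% (0.79 and 0.49 TPM). By posterior mean TPM the a forms held 47.39% and 61.15%, and the b forms 34.18% and 26.06%. The authors' bounds of the short a form and the long b form overlapped in both libraries, so the order of these single transcripts was not resolved. Within the a type, all of replicate 1 was placed in the short a form, without the 15 bases shown above. Replicate 2 was divided between the short a form (0.56 TPM), the long a form with those bases (0.43 TPM) and a small rest. The value of the short a form in replicate 1, 1.00 TPM, lay above the authors' own upper bound of 0.783 TPM, so this division was not resolved. Among the b forms the long one, with the 15 bases, had 0.67 and 0.32 TPM, and the short one had 0.12 and 0.17 TPM. A retained-intron model held 16.7% in replicate 1 and 10.2% in replicate 2.

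Tek had 3 coding transcripts, all with the kinase end. Tek-203, of 1123 residues, held 67.1% by the authors' deposited percentage in replicate 1 and 73.6% in replicate 2, and Tek-201, of 1122 residues, held 16.6% and 17.1%. Tek-202 lacks an exon of 153 bases (chr4:94799127-94799279, plus strand, the gene spanning 94739289 to 94874976) and held 16.3% in replicate 1 and 5.08% in replicate 2. The exon is shown in capitals between its neighbours, because its absence is what tells Tek-202 from the other coding forms.
Tek-203: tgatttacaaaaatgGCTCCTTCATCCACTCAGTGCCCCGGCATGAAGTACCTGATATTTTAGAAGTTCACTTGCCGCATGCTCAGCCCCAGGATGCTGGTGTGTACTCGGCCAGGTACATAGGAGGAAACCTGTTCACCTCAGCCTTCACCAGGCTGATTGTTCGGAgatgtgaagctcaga
The bounds of Tek-202 ran from near 0 to 2.00 TPM in replicate 1 and from near 0 to 1.33 TPM in replicate 2, so its difference was not resolved. Vegfc, Nrp1 and Angpt1 each had a single transcript in the deposited tables, which leaves no isoform split to describe; a soluble form of Nrp1 would be counted within it.

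The genes around the members covered a wide range of levels. Of 9 genes of oxygen sensing upstream of Vegfa all were detected, with a median of 15.8 TPM: Egln2, a prolyl hydroxylase that marks HIF proteins for destruction, had 34.7 and 36.3 TPM, and Hif1a, the oxygen-regulated subunit, had 29.0 and 29.7 TPM. Hif3a, a family member with inhibitory forms, had 19.5 and 18.2 TPM. Epas1 (HIF2A), which is known for its place in endothelial cells, was the lowest at 1.13 TPM in replicate 1 and 1.62 in replicate 2, and it was the 1 gene of 9 past the margin between the pools, lower in replicate 1, against 4.92% of all tested genes. Epas1 lies among genes of 50 to under 500 mean counts, of which 21.9% were past the margin in either direction. Hif1a exceeded Epas1 25.7-fold in replicate 1 and 18.3-fold in replicate 2.

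Of 12 semaphorins and plexins that share the neuropilins 8 were detected, with a median of 1.74 TPM. Plxnd1, an endothelial plexin, had 7.63 and 9.00 TPM, and Sema3a, a class 3 semaphorin that binds Nrp1, had 4.82 and 5.12 TPM. Sema3a was thus 2.05 and 2.03 times the level of Vegfa. The lowest was Sema3g, with 0.16 and 0.03 TPM, and 0 of the 9 that passed the count minimum were past the margin, against 8.68% of all tested genes. Of the 4 genes tied to VEGFC processing and lymphatic fate 3 were detected: Prox1, a lymphatic regulator that hepatoblasts also express, had 6.60 and 6.54 TPM, and Ccbe1, which helps cleave VEGFC, had 0.56 and 0.67 TPM. Pdpn, a lymphatic surface protein, was past the margin and higher in replicate 1, at 2.18 and 1.5 TPM, 1 of 4 tested against 3.76% of all genes higher. It lies among genes of 50 to under 500 mean counts, of which 21.9% were past the margin in either direction. Of 6 lymphatic endothelial markers 5 were detected, with a median of 6.24 TPM, and Ccl21a was the lowest at 0.33 and 0.15 TPM. Lyve1 is in both this list and the sinusoidal one.

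All 14 receptor signalling partners were detected, with a median of 10.9 TPM. Grb2 and Akt1, which are active in most cells, led with 68.0 and 77.2 TPM and with 66.6 and 71.0 TPM. Past the margin were 2 of the 14, Plcg1 and Pik3r1, both lower in replicate 1, against 4.92% of all tested genes lower. Both average 500 or more counts, and among such genes 1.31% were past the margin in either direction. The TPM ratios of Plcg1 and Pik3r1 were 0.735 and 0.785, but their ratios of shares of all counts were nearer 1, at 0.922 and 0.876. All 12 splicing factors known to act on Vegfa exons were detected, with a median of 68.0 TPM. Srsf2 had 700 and 703 TPM, Srsf3 had 472 and 465 TPM, and Srpk2, an SR protein kinase, was lowest at 3.65 and 3.62 TPM. Past the margin were 0 of the 12, against 8.68% of all tested genes. All 12 average 500 or more counts, and among such genes 1.31% were past it. Of 10 sinusoidal endothelial markers all were detected, led in the mean by Oit3 (32.6 and 28.1 TPM) and Stab2 (27.6 and 23.5 TPM, under Stab1, Lyve1 and Gata4 in replicate 2), with Clec4g lowest at 1.56 and 1.23 TPM. Kdr and Nrp1 were at levels between those of Stab2 and Clec4g, on the same TPM scale.

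**Figure D5:**
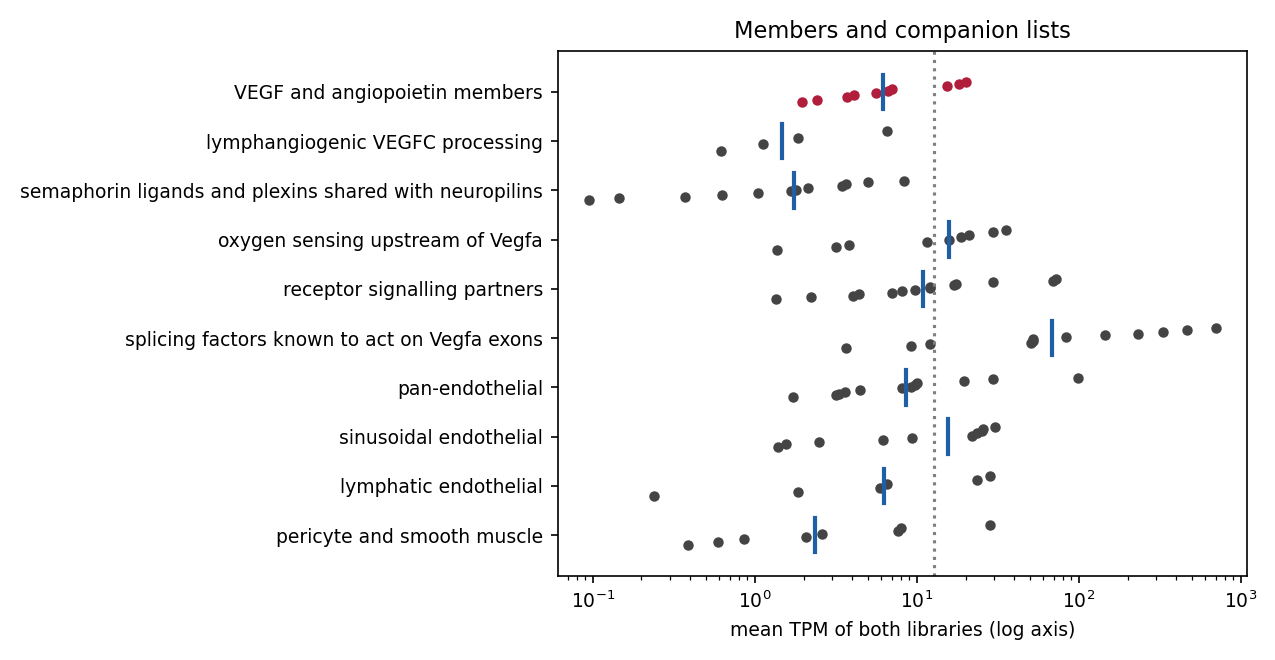
Mean TPM of both libraries (log axis) for the 10 members (red) and for each gene of the companion and vascular marker lists (grey), with a blue bar at each list's median and a dotted line at 12.7 TPM, the median of all detected genes. The members span 1.96 to 20.2 TPM, a range that the endothelial lists also cover. So do the oxygen sensing, receptor signalling, and pericyte and smooth muscle lists.

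Only Mir1903, within an exon of Nrp1, and Gm17473, antisense to Angpt1, overlapped exons of a member in the annotation used. Gm17473 was listed at 0 in both libraries, but the labels do not say whether strand was kept, and without strand the reads of antisense partners cannot be told apart.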

How the data were processed

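The values come from total RNA-seq of 2 pooled E12.5 liver libraries. Per the file headers and the texts deposited with them, genes and transcripts were quantified on mm10 with GENCODE M4; the names of the aligner and quantifier were not given in the sources used here. Deposited by the authors were expected counts (estimated, not normalized), TPM, FPKM, posterior mean TPM, percent of each gene per transcript, and bounds of TPM. TPM is scaled over all 69691 entries, including 97 spike-ins, and effective length is length minus 99, per the deposited tables. The fold between the pools is a ratio computed here from deposited values, on the log2 scale after adding 0.1 TPM.

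Symbols came from GENCODE M21 and RefSeq synonyms; exon structures and sequences came from M21 on mm10, and 33 of the 37 members' transcripts had the same length as deposited. The exceptions were Vegfa-211 and the single transcripts of Vegfc, Nrp1 and Angpt1. SDs are over 2 libraries. Ratio intervals are exact 95% Clopper-Pearson intervals from rounded expected counts and cover counting error only; a count of 3 at an effective length of 1000 bases corresponds to 0.0953 TPM in replicate 1 and 0.103 in replicate 2. The ratio code was tested on simulated data. The members and lists were chosen with earlier results of these data known. All 10 members are named, with every gene of the ligand, receptor and angiopoietin lists, the highest and lowest of other lists (1 of these is not reported here), and transcripts with 10 percent of their gene. Software was Python 3.11.15, pandas 2.3.3, SciPy 1.17.1, edgeR 4.0.16 and DESeq2 1.42.0, the last pair for scaling factors alone.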

Additional observations from a re-analysis of the deposited data

How the results depend on the processing

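The order of the 10 members was the same by FPKM, by posterior mean TPM and in each library alone. All 10 members also passed 0.5 TPM in both libraries, and 6 passed 5 TPM. The count of members past the 25% margin was 0 without a count minimum (31.6% of all genes tested), with minimums of 10 (16.8%) and 500 (1.31%), at 1.5-fold (2.04%), with edgeR or DESeq2 scaling (7.11% each) and with 1 TPM added (4.16%). Centred on the spike-ins it was 1 (Nrp2), against 11.3% of all tested genes; that scaling moved the median log2 ratio of all genes by 0.12, and under it Nrp1, Tek, Flt1, Vegfc, Flt4 and Vegfa changed from just under 1 to just over 1 (Tek also with edgeR and DESeq2 scaling), while Kdr, Nrp2 and Angpt1 were above 1 in all 6 scalings and pseudocounts. Isoform shares depended on the measure: by share of expected counts and by posterior mean TPM, the VEGF120 type averaged 52.6% and 32.6% of Vegfa against 42.5%, full-length Flt1 58.9% and 38.5% against 40.5%, and noncoding Flt1 15.7% and 43.2% against 40.4%. By share of expected counts soluble Flt1 averaged 25.4% against 19.2%, and the Nrp2 a forms 65.5% against 54.2%; counts weight long transcripts. Vegfa was 2.88 and 3.29 TPM by posterior mean, and in replicate 2 its TPM of 2.52 lay under the authors' own lower bound of 2.56. No paired analysis was possible because the labels give 1 group. Depth limits Vegfa and Nrp2 isoforms most, with 162 and 186 and with 351 and 294 counts to divide.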
